A study of Mus musculus with 2 samples.

Results

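Neutrophil lineage cells of the mouse spleen were taken as barcodes with 200 to 6000 detected genes, under 10% mitochondrial UMIs, at least 50 UMIs of S100a8 and S100a9 together, and at least 2 UMIs summed over Csf3r, Retnlg, Cxcr2, Mmp8, Ngp, Camp and Ltf. Cells with more than 1 UMI of Cd79a, or any of Cd3d, Cd3e or Csf1r, were left out. A UMI is a molecular tag that counts 1 captured transcript. This gate took 112 of 26249 barcodes, 56 in the CKO library and 56 in the WT library. The series asks about RPA1 in T cells. Its CKO library was made from spleen immune cells with a conditional knockout of RPA1 and its WT library from those with a WT genotype, both on the C57BL/6 strain. Both were made with 10x Genomics 3' single-cell chemistry. The labels used here give neither the Cre driver, the deleted exons, the age and sex nor the number of mice, so it is not known whether the gene was deleted in neutrophils. With 1 library per genotype, genotype and library cannot be told apart, and no test between genotypes was made.

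Neutrophils are short-lived phagocytes that kill microbes with proteins packed in granules, and they are made in large numbers in bone marrow and, to a lesser extent, in the spleen. While the precursors still divide they make primary granule enzymes such as elastase (Elane) and myeloperoxidase (Mpo), then specific granule proteins such as lactoferrin (Ltf), cathelicidin (Camp) and neutrophilic granule protein (Ngp). After the last division come gelatinase granule proteins such as Mmp8 and Mmp9, and last the receptors and cytokines of the mature cell, among them Cxcr2 and Il1b. Replication protein A, whose largest subunit is RPA1, coats single-stranded DNA while it is copied or repaired.

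Retained cells were those that passed the limits on genes and mitochondrial UMIs. The gated cells made up 0.444% of 12610 retained CKO cells (95% Clopper-Pearson interval 0.336% to 0.576%) and 0.442% of 12679 retained WT cells (0.334% to 0.573%). T cells by a gate on Cd3d and Cd3e made up 5.74% of retained CKO cells and 26.7% of retained WT cells, and over the other cells alone the neutrophil shares were 0.471% (0.356% to 0.611%) and 0.602% (0.455% to 0.781%), with overlapping intervals. The gated cells were rich in RNA, with a median of 12927.5 UMIs in CKO and 12875.5 UMIs in WT, against 4690 and 5520 UMIs over all retained cells. Their median mitochondrial share was 0.573% in CKO and 0.685% in WT, against 3.52% and 3.18%. The CKO library held 76910129 UMIs in all and the WT library 84240951. The libraries shared 36 barcodes, of which 0 were gated. All intervals are 95% intervals that cover counting error only, and neither the spread between cells nor that between mice.

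The choice of cells rested on the UMIs of the 9 genes named above, so their levels are a description. The lowest cell had 130 UMIs of S100a8 and S100a9 in CKO and 50 in WT, the next had 2415 and 439, and the median was 4245.5 and 4205.5. For the 7 lineage genes, where 2 UMIs were asked for, the lowest cell had 55 in CKO and 10 in WT. Just below the limit, the highest cell that met every other condition had 38 UMIs in CKO and 39 in WT. Another 31 CKO and 28 WT cells reached 50 calprotectin UMIs but failed another condition, most often through Cd3d or Cd3e (12 and 17), Csf1r (12 and 5) or Cd79a (11 and 7). Of these, 25 and 20 held at least 1% of their UMIs in Ngp, Camp and Ltf.

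Against the rest of its own library, the gated population carried neutrophil genes that the gate did not use. Of 12241 genes with at least 50 UMIs in each library, 507 were at least 4-fold higher than in the other retained cells in both libraries (4.14%). Ly6g, the antigen of the Gr-1 antibody on mouse neutrophils, had the highest value of the lower of the 2 libraries' ratios among genes outside the gate, with 903 CPM (counts per 1000000 UMIs of the summed cells) in CKO neutrophils against 3.46 CPM in the other CKO cells, and 846 CPM against 2.93 CPM in WT. Cebpe, the transcription factor that turns on specific granule genes, had 658 CPM against 3.77 CPM in CKO and 549 CPM against 2.33 CPM in WT. Lcn2, the iron-siderophore binding protein lipocalin 2 of specific granules, had 18331 CPM against 99.0 CPM in CKO and 22468 CPM against 68.2 CPM in WT. Mmp9, a gelatinase, Itgb2l, an integrin beta chain, Fpr2, a formyl peptide receptor, and Lrg1 and Orm1, secreted glycoproteins, were among the 15 leading genes by that order too, as were Olfm4, Olfml2b, Inhba, Mrgpra2b, Ankrd22, Mapk13 and Ncam1. Mrgpra2b has a close paralog, and its reads may have been split between them. Of the 5 marker genes of the label, S100a8, S100a9 and Ngp were found in all 56 cells of each library, Camp in 56 CKO and 55 WT cells and Retnlg in 38 CKO and 45 WT cells, but the gate used all of them.

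S100a8 and S100a9, the subunits of calprotectin, filled a median of 33.1% of a CKO cell's UMIs (18.4% to 41.8% over cells) and 31.5% of a WT cell's UMIs (6.66% to 39.0%). S100a9 alone took 18.7% (10.1% to 23.8%) in CKO and 18.3% (3.99% to 23.4%) in WT, and S100a8 took 14.6% (8.27% to 18.03%) in CKO and 13.3% (2.66% to 15.6%) in WT. Together with Ngp, Camp, Ltf and the other gate genes they amounted to 42.8% of the summed UMIs in CKO and 41.9% in WT, so the CPM of every other gene is measured on what these transcripts leave. The lowest WT values of S100a8 and S100a9 come from a single cell of 751 UMIs, which held 50 UMIs of these genes together.

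Specific granule transcripts were found in nearly every cell. Ngp, of the cystatin family, took a median of 4.84% of UMIs in CKO cells (1.31% to 6.69%) and 4.91% in WT cells (0.192% to 7.24%). Camp, the precursor of the antimicrobial peptide CRAMP, took 5.30% (1.83% to 7.45%) in CKO and 5.11% (0% to 9.10%) in WT. The cells of the libraries spanned overlapping ranges for these genes. Lcn2 had a median of 1.83% (0.607% to 3.07%) in CKO and 2.25% (0.405% to 3.48%) in WT, and Ltf, which binds iron, had 1.23% (0.223% to 2.17%) in CKO and 1.496% (0% to 2.39%) in WT. Both had the lower median in CKO, with ranges that overlapped over most of their width. Lyz2, lysozyme, had 1.998% in CKO and 2.009% in WT. With Ngp, Camp and Ltf summed, 56 of 56 CKO cells (100%, 93.6% to 100%) and 55 of 56 WT cells (98.2%, 90.4% to 99.95%) held at least 1% of their UMIs in the 3 genes, and 0 CKO and 1 WT cell lay between 0.5% and 2%.

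**Figure D1:**
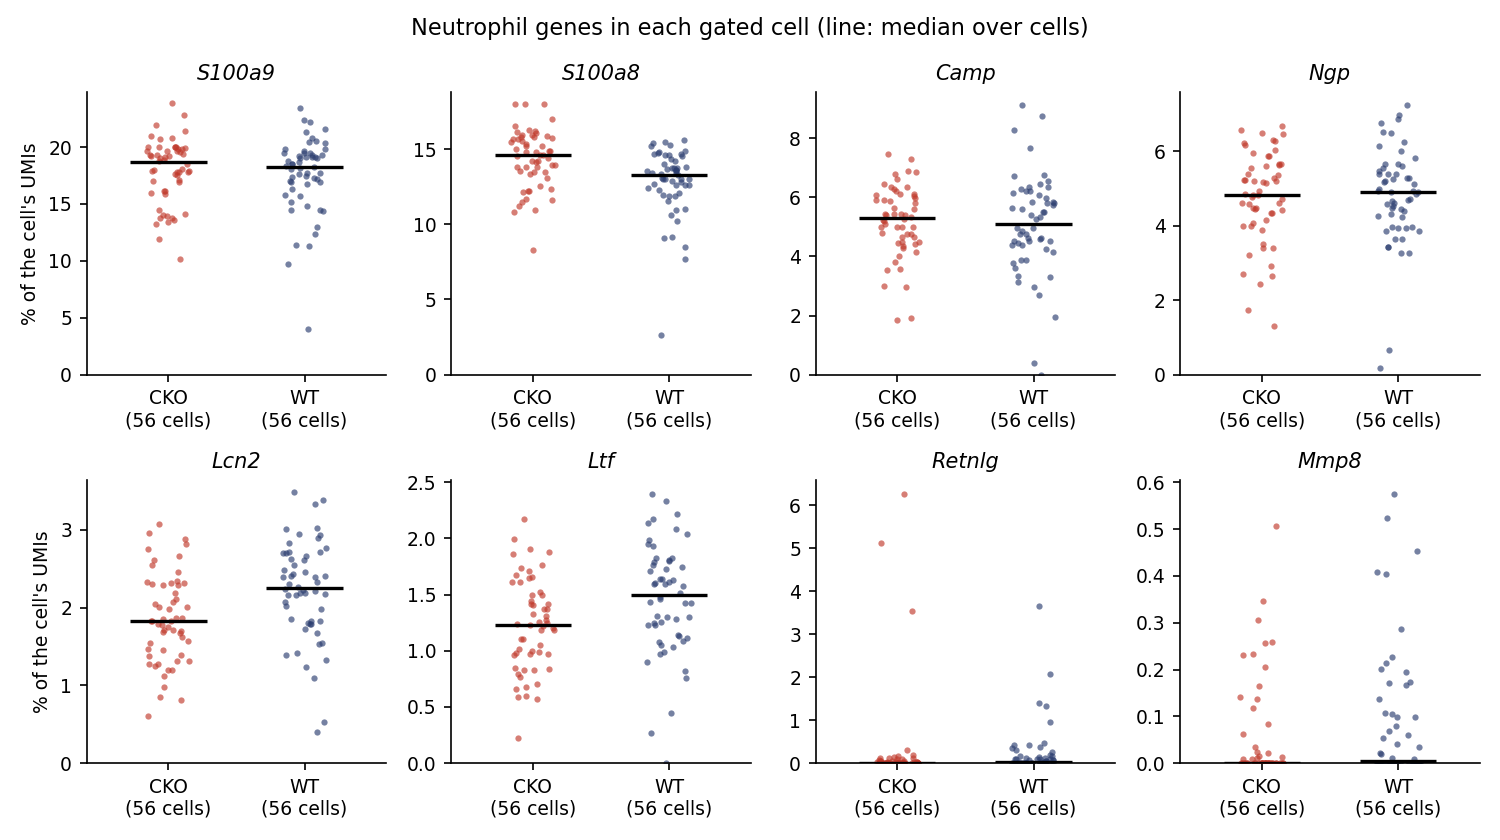
Share of each cell's UMIs (percent, linear axes that start at 0) taken by 8 genes in the 56 CKO cells and the 56 WT cells, 1 point per cell with the median as a line; all 8 but Lcn2 were used by the gate. S100a8, S100a9, Camp and Ngp overlap between the libraries, Ltf and Lcn2 have the lower median in CKO, and Retnlg is concentrated in a few cells of each library.

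Mpo and Elane, of the earliest stage, and Il1b, of the latest, had scarce transcripts. Mpo had 0 UMIs in 56 CKO and 56 WT cells, which by a floor of 3 cells allows a share of cells with a UMI of up to 5.36% in each. Elane was found in 4 CKO and 3 WT cells, and 1 cell held 67.6% of its UMIs in CKO and 96.4% in WT. Il1b, the cytokine of activated and mature neutrophils, had 0 UMIs in CKO and 1 UMI in WT. Cxcr2, also a late gene but one the gate used, had 52 UMIs in 26 CKO cells and 105 UMIs in 40 WT cells. Cells with Il1b, Csf3r and Retnlg but no Ngp, Camp or Ltf did exist among those that failed the gate, 3 in CKO and 4 in WT, and 2 of them in each library failed with a single Csf1r UMI. Inside the gate, 0 CKO cells and 1 WT cell had under 1% of UMIs in Ngp, Camp and Ltf, so the planned comparison of granule-rich with granule-low cells could not be made.

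Gelatinase granule genes separated the cells. Retnlg, which encodes a resistin-like protein of neutrophils, was found in 67.9% of CKO cells (54.0% to 79.7%) and in 80.4% of WT cells (67.6% to 89.8%), and with every cell thinned to 5000 UMIs in 52.7% of 55 CKO cells and 62.3% of 53 WT cells. B cells by gate, which do not make it, had a UMI in 0.134% and 0.0704% of cells at median depths of 4444 and 4663 UMIs. That gate asked for under 20 UMIs of S100a8 and S100a9, so these low shares follow in part from it. Its top 3 CKO cells held 482, 413 and 406 UMIs and its top 3 WT cells 187, 132 and 123, among cells of at least 5000 UMIs. In each library 3 such cells gave Retnlg at least 1% of their UMIs. Of the Retnlg UMIs in cells of that depth, these held 85.4% in CKO and 40.7% in WT. They had 20 to 41 UMIs of Mmp8 (neutrophil collagenase) in CKO and 19 to 41 in WT, and 0 UMIs of Fcnb in both. Below that depth, a gated WT cell of 4697 UMIs held another 172 Retnlg UMIs, 3.66% of its own.

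Fcnb, which encodes the lectin ficolin B, and Mmp8 marked largely separate cells. Of 55 CKO cells of at least 5000 UMIs, 27 held Fcnb alone, 17 Mmp8 alone, 5 both and 6 neither. Of 53 WT cells, 23 held Fcnb alone, 19 Mmp8 alone, 7 both and 4 neither. The cells with both held 25 of 516 Fcnb UMIs in CKO and 14 of 478 in WT.

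A subset of the cells carried transcripts of cell division. Each cell's UMIs of 20 proliferation genes were scaled to 5000 UMIs, and a cell with at least 6 of the 20 genes expected to be seen at that depth was called cycling. This took 12 of 55 CKO cells (21.8%, 11.8% to 35.0%) and 13 of 53 WT cells (24.5%, 13.8% to 38.3%), while 1 CKO and 3 WT cells under 5000 UMIs were not classed. The class is a range of a score, though few cells lay near its limit, with 4 cells of each library between 4 and 8 genes. Cycling cells were deeper, with a median of 19499 UMIs in CKO and 20919 in WT, against 12000 and 12443.5 UMIs in non-cycling cells.

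Cycling cells held few or no transcripts of the gelatinase granule genes Mmp8, Mmp9 and Retnlg, while those of Ngp and Camp were as abundant as in non-cycling cells or nearly so. Of 3132 genes with at least 20 UMIs over both classes in each library, 665 were at least 1.5-fold higher in cycling cells in both libraries (21.2%) and 413 at least 1.5-fold lower (13.2%). Histone genes (Hist1h2ab, Hist1h3c, Hist1h3i, Hist1h2bn, Hist1h2ap, Hist1h3e), Pclaf, which binds PCNA, the spindle genes Prc1, Kif11 and Tpx2, the cohesin acetyltransferase Esco2 and the cyclin Ccna2 led the higher ones. The class itself was chosen on genes of this programme, so their rise is no finding. Counts of single histone genes are uncertain, because these genes are nearly identical.

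All 6 measured gelatinase granule genes were at least 1.5-fold lower in cycling cells in both libraries. Mmp8 had 0 UMIs in the 12 cycling CKO cells and 326 in the 43 non-cycling ones, and 0 in the 13 cycling WT cells and 541 in the 40 non-cycling ones. Against a floor of 3 UMIs over the cycling class that is at least 53.9-fold lower in CKO and at least 99.5-fold lower in WT. Retnlg had 19.1 CPM in cycling and 2881 CPM in non-cycling CKO cells, and 39.4 CPM in cycling and 2122 CPM in non-cycling WT cells. Mmp9 had 18 UMIs in cycling against 528 in non-cycling CKO cells, and 0 against 511 in WT cells. Adam8, a metalloprotease, had 0 UMIs in cycling cells of both libraries, and Slpi, a protease inhibitor, and Itgam, the CD11b integrin chain, were lower by smaller factors, with ratios of 0.168 and 0.549 in CKO and 0.260 and 0.512 in WT.

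Other genes with the lowest ratios belonged to no granule list. The matrix protein gene Thbs1 had 0 UMIs in cycling and 29 in non-cycling CKO cells, and 0 and 48 in WT cells, and Cd55, a complement inhibitor, 0 and 24 in CKO and 0 and 26 in WT. Fpr1, which senses bacterial formyl peptides, had 0 and 26 UMIs in CKO and 1 and 30 in WT. Emb, an adhesion protein gene, had 2 and 51 in CKO and 3 and 53 in WT, Ltb, lymphotoxin beta, 4 and 76 in CKO and 4 and 73 in WT, and Hacd4, of fatty acid elongation, 1 and 29 in CKO and 0 and 37 in WT. H2-Aa, an MHC class II chain, had 1 and 35 in CKO and 2 and 50 in WT, but 1 non-cycling cell with dendritic cell markers held 25 of its 36 UMIs over all gated CKO cells, and another 43 of 55 over all gated WT cells.

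Specific granule genes were split. Camp was 1.14-fold higher in cycling than in non-cycling cells in CKO (interval 1.12 to 1.16) and 1.15-fold higher in WT (1.13 to 1.17). Ngp had a cycling over non-cycling ratio of 0.942 in CKO (0.922 to 0.962) and 1.04 in WT (1.02 to 1.07), on opposite sides of 1. Chil3, a chitinase-like lectin, was higher, with ratios of 1.54 in CKO and 1.68 in WT. Ltf was lower, with ratios of 0.637 in CKO and 0.623 in WT, as was Lyz2 with 0.614 in CKO and 0.649 in WT. In cycling cells Ltf took a median of 0.833% of UMIs in CKO (0.575% to 1.25%) and 1.05% in WT (0.450% to 1.6%), against 1.37% in non-cycling CKO cells (0.223% to 2.17%) and 1.63% in non-cycling WT cells (0.988% to 2.39%). The ranges of the 2 classes overlap in both libraries. Of the 10 measured specific granule genes, 1, Chil3, was at least 1.5-fold higher in cycling cells in both libraries and 2, Ltf and Lyz2, at least 1.5-fold lower. Over all 3132 genes measured these shares were 21.2% and 13.2%.

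**Figure D2:**
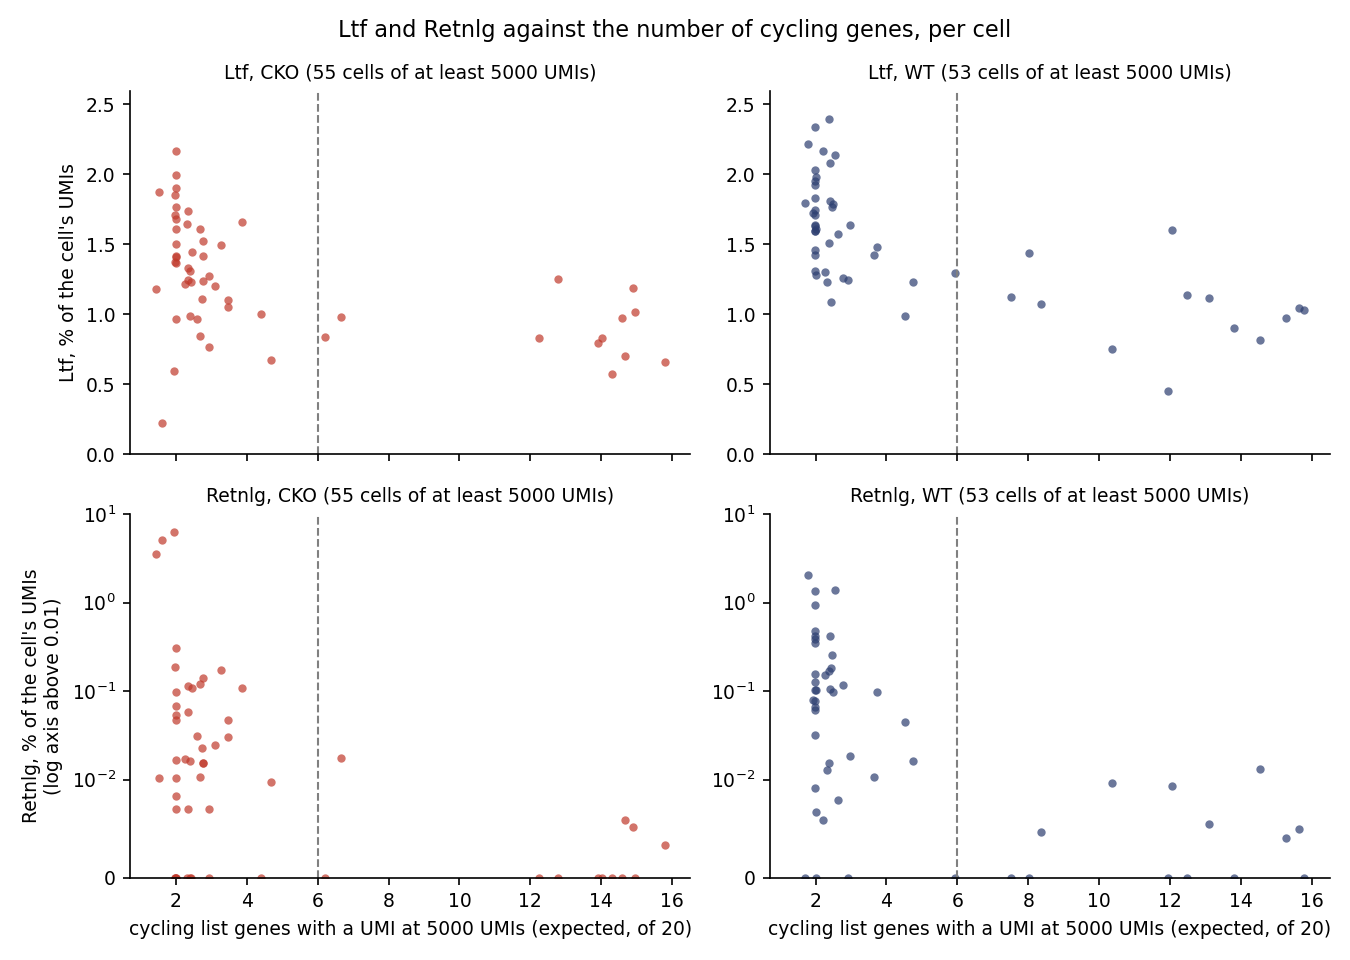
Each point is 1 cell of at least 5000 UMIs, with the expected number of cycling genes of 20 on the horizontal axis and the cell's percent of UMIs in Ltf (linear) or Retnlg (log above 0.01%) on the vertical axis, CKO on the left and WT on the right. The dashed line marks 6 genes; to its right Retnlg reaches at most 0.0176% of UMIs in the 12 CKO cells and 0.0130% in the 13 WT cells.

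Of the primary granule genes, Ms4a3 was higher in cycling cells over several cells, and Elane and Prtn3 largely through single cells. Ms4a3, a membrane protein of granulocyte precursors, had 53 UMIs in cycling and 9 in non-cycling CKO cells, and 44 in cycling and 13 in non-cycling WT cells. Elane had 36 UMIs in cycling and 1 in non-cycling CKO cells, and 56 and 0 in WT cells, but 1 cell held 69.4% of the cycling UMIs in CKO and 96.4% in WT. Prtn3, proteinase 3, had 34 and 1 UMIs in CKO and 54 and 0 in WT. It was found in 4 of 12 cycling CKO cells and 4 of 13 cycling WT cells, and 1 cell held 47.1% of the cycling UMIs in CKO and 74.1% in WT. Of 4 measured primary granule genes 3 were at least 1.5-fold higher in cycling cells in both libraries and 1, Srgn, the proteoglycan serglycin, at least 1.5-fold lower. Fcnb was found in 12 of 12 cycling CKO cells and 13 of 13 cycling WT cells, against 20 of 43 and 17 of 40 non-cycling cells. These counts were not thinned, and cycling cells were deeper. As a share of a cell's UMIs, Fcnb had a median of 0.114% in cycling CKO cells (0.0204% to 0.308%) and 0% in non-cycling ones (0% to 0.186%). In WT the medians were 0.0945% (0.00495% to 0.357%) and 0% (0% to 0.180%).

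Receptors of the mature cell were lower in cycling cells as a list. Of 17 measured surface and cytokine receptor genes, 13 were at least 1.5-fold lower in both libraries and 0 higher, with a median log2 ratio of -1.06 in CKO and -1.36 in WT, against 0.09 and 0.05 over all genes measured. Ly6g had a ratio of 0.291 in CKO and 0.169 in WT, Fpr2 0.350 and 0.154, Csf3r, the receptor of the growth factor G-CSF, 0.382 and 0.270, and Cxcr2, the chemokine receptor that draws neutrophils out of marrow, 0.480 and 0.177. Of 14 measured chemotaxis and adhesion genes, which share several members with that list, 8 were lower and 0 higher. Cxcr4, which holds neutrophils in marrow, was not among them, with ratios of 0.987 in CKO and 1.47 in WT.

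Interferon-induced genes were also lower in cycling cells, 7 of 12 measured and 0 higher, among them Ifitm6 with ratios of 0.177 in CKO and 0.234 in WT, Ifitm3 with 0.240 and 0.268, and Slfn1 with 0.0599 and 0.186. Of 9 granulocyte transcription factors 0 were higher and 3, Mxd1, Klf2 and Max, lower. Cebpe had ratios of 1.16 in CKO and 1.23 in WT and Cebpd 0.988 and 0.933, while Mxd1, an antagonist of Myc, had 0.352 and 0.287. Klf2, a zinc finger factor, had 0.504 and 0.640, and Cebpb 1.42 and 1.94.

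**Figure D3:**
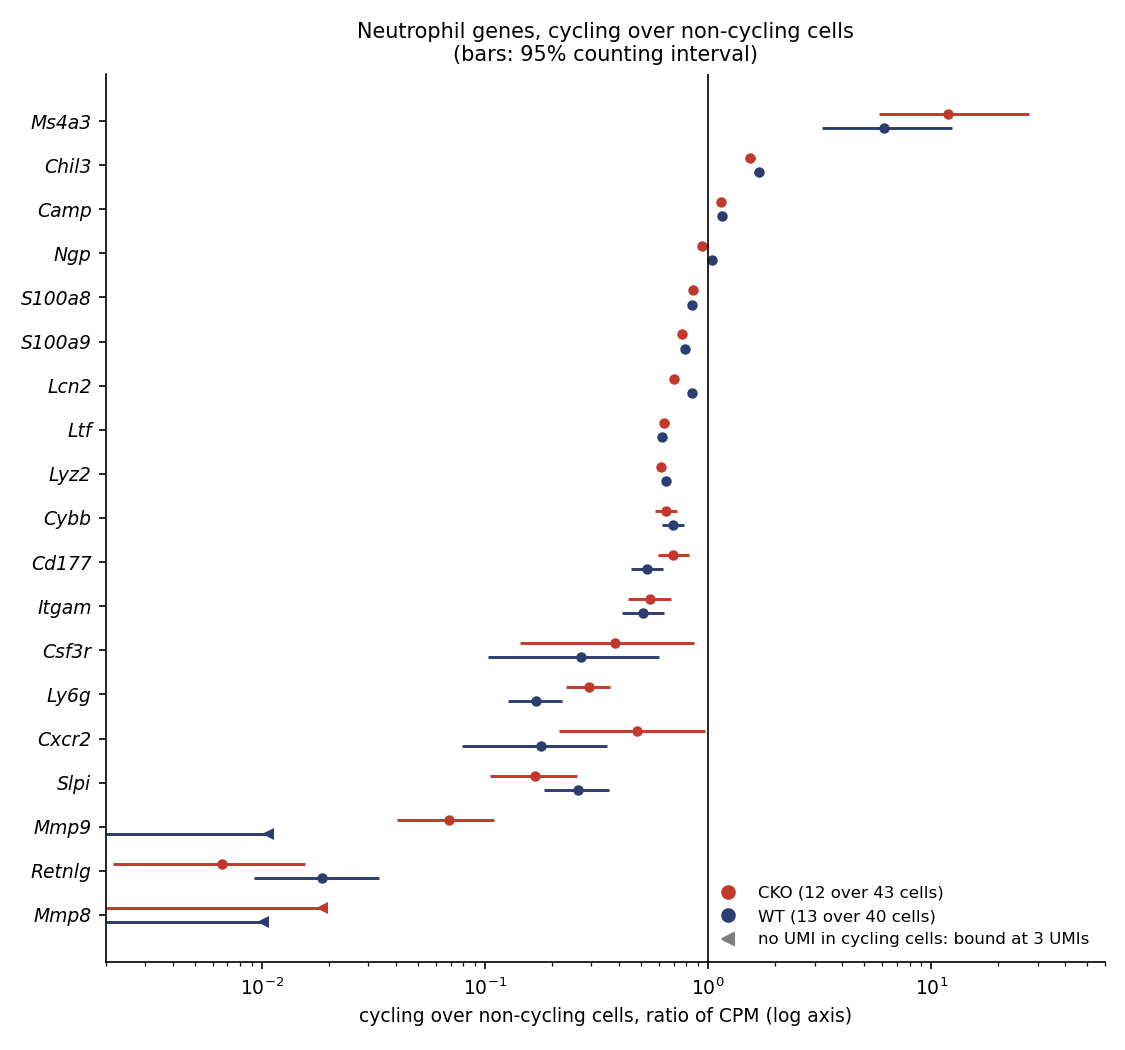
Ratio of CPM in cycling over non-cycling cells (log axis) for 19 genes of primary, specific and gelatinase granules, calprotectin and receptors, with CKO above WT for each gene and 95% counting intervals as bars. Triangles mark the value that a floor of 3 UMIs gives where cycling cells had 0 UMIs. There the bar ends at the triangle, short of the upper end of the 95% interval. The ratios lie on the same side of 1 in both libraries for every gene shown except Ngp, and fall lowest for Mmp9, Retnlg and Mmp8.

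The upstream sequence of 4 of these genes, all on chromosome 9, is shown because Ngp and Camp differed little between the classes, while Ltf was lower and Mmp8 had 0 UMIs in cycling cells. Each run is the 250 bases before the RefSeq start in GRCm38.p6, read 5′ to 3′ on the gene's strand. Capitals mark matches to TTGCNNAA or its reverse complement TTNNGCAA, a pattern of the C/EBP family to which Cebpe belongs. For Ngp, chr9:110419558-110419807 on the plus strand is shown, for Camp chr9:109849457-109849706 on the minus strand, for Ltf chr9:111019042-111019291 on the plus strand and for Mmp8 chr9:7558179-7558428 on the plus strand.
Ngp: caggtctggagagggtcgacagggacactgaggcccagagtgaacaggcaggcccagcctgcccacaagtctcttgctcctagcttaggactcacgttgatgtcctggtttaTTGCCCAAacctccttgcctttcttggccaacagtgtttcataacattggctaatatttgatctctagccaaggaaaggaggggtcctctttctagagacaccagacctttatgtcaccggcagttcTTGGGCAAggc
Camp: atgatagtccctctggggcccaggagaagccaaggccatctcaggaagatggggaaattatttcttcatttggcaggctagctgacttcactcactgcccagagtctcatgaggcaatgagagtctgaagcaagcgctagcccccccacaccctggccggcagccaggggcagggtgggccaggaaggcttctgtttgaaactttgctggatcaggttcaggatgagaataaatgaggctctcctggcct
Ltf: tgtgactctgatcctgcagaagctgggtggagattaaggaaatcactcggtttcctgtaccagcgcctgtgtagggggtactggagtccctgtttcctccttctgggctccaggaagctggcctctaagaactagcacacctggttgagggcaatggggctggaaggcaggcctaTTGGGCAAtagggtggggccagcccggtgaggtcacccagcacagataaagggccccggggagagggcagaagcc
Mmp8: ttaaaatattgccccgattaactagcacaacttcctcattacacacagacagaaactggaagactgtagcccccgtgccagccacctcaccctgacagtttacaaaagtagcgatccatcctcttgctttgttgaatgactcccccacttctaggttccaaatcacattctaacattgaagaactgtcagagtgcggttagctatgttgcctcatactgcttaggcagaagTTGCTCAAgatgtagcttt
Ngp held 2 matches, TTGCCCAA 138 bases and TTGGGCAA 11 bases before the start. Ltf held TTGGGCAA at 75 bases, Mmp8 held TTGCTCAA at 19 bases, and Camp held 0. Of 32851 such windows of all genes, 9.56% held at least 1 match. Among the lists, 3 of 9 specific granule genes, 4 of 5 gelatinase granule genes and 0 of 7 primary granule genes with a window held 1. A match is a description of letters and not of a bound site.

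The targeted gene was compared first between the genotypes. Rpa1 (GRCm38 chromosome 11, 75298166 to 75348324, minus strand) had 5 UMIs in 4 of 56 CKO cells and 13 UMIs in 7 of 56 WT cells, a CKO over WT ratio of 0.386 (0.108 to 1.16). The interval, which covers counting error only, includes 1. In cycling cells alone it had 3 UMIs in CKO and 13 in WT, a ratio of 0.247 (0.0451 to 0.898), and in the other retained cells the ratio was 0.884. As the deleted exons are not given and the 3' tags may lie outside them, the value does not check the label. Rpa2 had 9 UMIs in CKO and 18 in WT, and Rpa3 34 and 31.

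Over all genes, higher and lower ones were about as many. Of 5312 genes with at least 20 UMIs over both libraries, 530 were at least 1.5-fold higher in CKO (9.98%) and 508 at least 1.5-fold lower (9.56%), with a median log2 ratio of 0.01. With a minimum of 50 UMIs they were 146 and 145 of 2937 genes. Of 10 specific granule genes 1, Olfm4, was higher and 0 lower, with a median of -0.05. Ngp had a CKO over WT ratio of 0.973 (0.959 to 0.987) and Camp one of 0.994 (0.981 to 1.01). Lcn2, with 0.816 (0.798 to 0.834), Hp, haptoglobin, with 0.791 (0.733 to 0.854), and Ltf, with 0.843 (0.820 to 0.867), were below 1 without reaching 1.5-fold. Of 6 NADPH oxidase genes 0 and of 5 measured S100 genes 0 passed in either direction.

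Among the gelatinase genes Mmp8 alone of 6 passed, with 413 CPM in CKO and 692 CPM in WT, a ratio of 0.597 (0.519 to 0.685). It was found in 22 CKO and 28 WT cells. Retnlg had 1931 CPM in CKO and 1592 CPM in WT, and without the highest cell of each library its ratio was 0.974 in place of 1.21. Cxcr2 was lower, with 52 UMIs in 26 CKO cells and 105 UMIs in 40 WT cells, a ratio of 0.498 (0.350 to 0.700), and in non-cycling cells alone the ratio was 0.439. Over all 5312 genes measured, 9.98% were at least 1.5-fold higher and 9.56% at least 1.5-fold lower. Of 19 receptor genes 0 were higher and 2, Cxcr2 and the decoy receptor Il1r2, lower, which is near the share over all genes. Of 14 chemotaxis and adhesion genes 0 were higher and 3 lower. These were Cxcr2, which is in both lists, the chemokine receptor Ccr1, with 21 UMIs in CKO and 42 in WT, and Itgb2l. As Mmp8, Retnlg and Cxcr2 belong to the gate, their values are a description.

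Among the 12 genes ranked highest in CKO, cell division and a few sparse genes were prominent. Hmmr, a spindle-associated hyaluronan receptor, had 53 UMIs in CKO and 14 in WT, a ratio of 3.80 (2.08 to 7.42), Ube2c, which tags cyclins for destruction, 109 and 43, and Kif20b, a mitotic kinesin, 34 and 9. Hist1h2ap had 516 and 223 UMIs, with a ratio of 2.32 in neutrophils and 2.596 in the other retained cells. In non-cycling neutrophils alone it had 3 UMIs in CKO and 3 in WT, a ratio of 0.961 (0.129 to 7.17). Olfm4, a glycoprotein that marks a subset of neutrophils, had 358 UMIs in 9 CKO cells and 124 UMIs in 3 WT cells. Its ratio of 2.90 (2.36 to 3.59) rests on these few cells, and was 4.23 without the highest cell of each library.

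Irf1, an interferon-regulated transcription factor, had 32 UMIs in 23 CKO cells and 7 UMIs in 7 WT cells, a ratio of 4.59 (1.99 to 12.3), against 0.697 in the other retained cells. With the calprotectin limit at 20 UMIs, which adds a few cells, the ratio was 1.79. Nek7, a kinase of mitosis and of the NLRP3 inflammasome, had 37 UMIs in 24 CKO cells and 9 UMIs in 8 WT cells. Rnf34, a ubiquitin ligase, was spread as widely, with 37 UMIs in 26 CKO cells and 11 UMIs in 11 WT cells, and so was Ankrd13c, with 31 UMIs in 24 CKO cells and 9 UMIs in 7 WT cells. The other 3 rested on few cells. The chemokine Ccl6 had 24 UMIs in 5 CKO cells and 3 UMIs in 2 WT cells, with a ratio of 8.04 that was 1.51 at a calprotectin limit of 20 UMIs, and the metallothionein Mt1 had 35 UMIs in 6 CKO cells and 10 UMIs in 4 WT cells. For Bst2, the antiviral protein tetherin, 1 CKO cell held 79.2% of 72 UMIs, and without the highest cell of each library the ratio was 0.793 in place of 2.68.

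The 12 genes ranked lowest in CKO began with Cd14, the co-receptor for bacterial lipopolysaccharide. It had 7 UMIs in 6 CKO cells and 51 UMIs in 26 WT cells, a ratio of 0.138 (0.0528 to 0.305), and of 0.131 in non-cycling cells alone. In the other retained cells the Cd14 ratio was 0.579. Ifitm2, an antiviral membrane protein, had 172 UMIs in CKO and 373 in WT, a ratio of 0.463 (0.384 to 0.556), and Itgb2l had 112 and 235, a ratio of 0.479 (0.379 to 0.602). Both were spread over the population, in 44 CKO and 52 WT cells for Ifitm2 and in 48 and 54 for Itgb2l. The Ifitm2 ratio was 0.359 in non-cycling and 0.886 in cycling cells, and 1.29 in the other retained cells.

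The rest of these genes had at most 72 UMIs in a library. Ldhc, the lactate dehydrogenase subunit known from testis, had 3 UMIs in CKO and 23 in WT. Fos, the immediate early transcription factor, had 23 and 57, with a ratio of 0.405 (0.238 to 0.669), and its partner Junb had 26 and 49. Among 12 measured immediate early and stress genes 0 were higher and 3, Fos, Junb and the phosphatase Dusp1, lower, while Jun and Ier2 had ratios of 1.10 and 1.10. The shares over all 5312 genes measured were 9.98% higher and 9.56% lower. Lrpap1, a chaperone of lipoprotein receptors, had 8 and 28 UMIs, the anthrax toxin receptor Antxr2 15 and 39, the lipase Ddhd2 14 and 36, and Zfp638 28 and 60. Another 3, Mcm6 with 21 and 64 UMIs, Mcm4 with 23 and 60 and Topbp1 with 30 and 72, belong to DNA replication.

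Among the cell-cycle genes, those of DNA replication lay mostly lower and those of mitosis mostly higher in the CKO cells. Of the 20 cycling genes 4 (Top2a, Cenpf, Ube2c and Nusap1) were higher and 2 (Tk1 and Mcm5) lower. To describe this, genes of S phase and of G2 and M phase were taken apart. Both lists of 25 genes were chosen after the values of single members were known, so their counts are descriptions and support nothing beyond them. Of 22 measured S phase genes 12 were at least 1.5-fold lower and 0 higher, with a median log2 ratio of -0.63. Of 24 measured G2 and M phase genes 16 were at least 1.5-fold higher and 0 lower, with a median of 0.88. The shares over all 5312 genes measured were 9.98% higher and 9.56% lower. Summed, the S phase genes had 849 CPM in CKO and 1305 CPM in WT, a ratio of 0.650 (0.589 to 0.717), and the G2 and M phase genes had 2138 CPM and 1289 CPM, a ratio of 1.66 (1.53 to 1.79). Of these UMIs, 622 of 670 in CKO and 953 of 1035 in WT lay in cycling cells for the S phase list, and 1620 of 1687 and 955 of 1022 for the G2 and M phase list. Within them alone the summed ratios were 0.698 (0.630 to 0.773) and 1.81 (1.67 to 1.97).

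The subunits of the MCM helicase that opens DNA for replication gave values in 1 direction, with ratios of 0.558 for Mcm2, 0.734 for Mcm3, 0.385 for Mcm4, 0.480 for Mcm5, 0.330 for Mcm6 and 0.846 for Mcm7. The intervals of Mcm4, Mcm5 and Mcm6 lay below 1 and those of Mcm2, Mcm3 and Mcm7 included it. Clspn, the checkpoint mediator claspin, had 22 UMIs in CKO and 44 in WT, and Pcna, the sliding clamp, 86 and 118. Rrm2, of ribonucleotide reductase, was not lower, with 68 UMIs in CKO and 62 in WT.

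Of the mitotic genes, Cdc20, which activates the anaphase-promoting complex, had 28 UMIs in CKO and 8 in WT, the kinase gene Plk1 19 and 7, Ccnb1, cyclin B1, 21 and 7, and Top2a, topoisomerase II, 256 and 142. Mki67 was higher by less, with 277 and 222 UMIs and a ratio of 1.25 (1.05 to 1.503). Bub1, of the spindle checkpoint, had 14 and 18 UMIs.

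**Figure D4:**
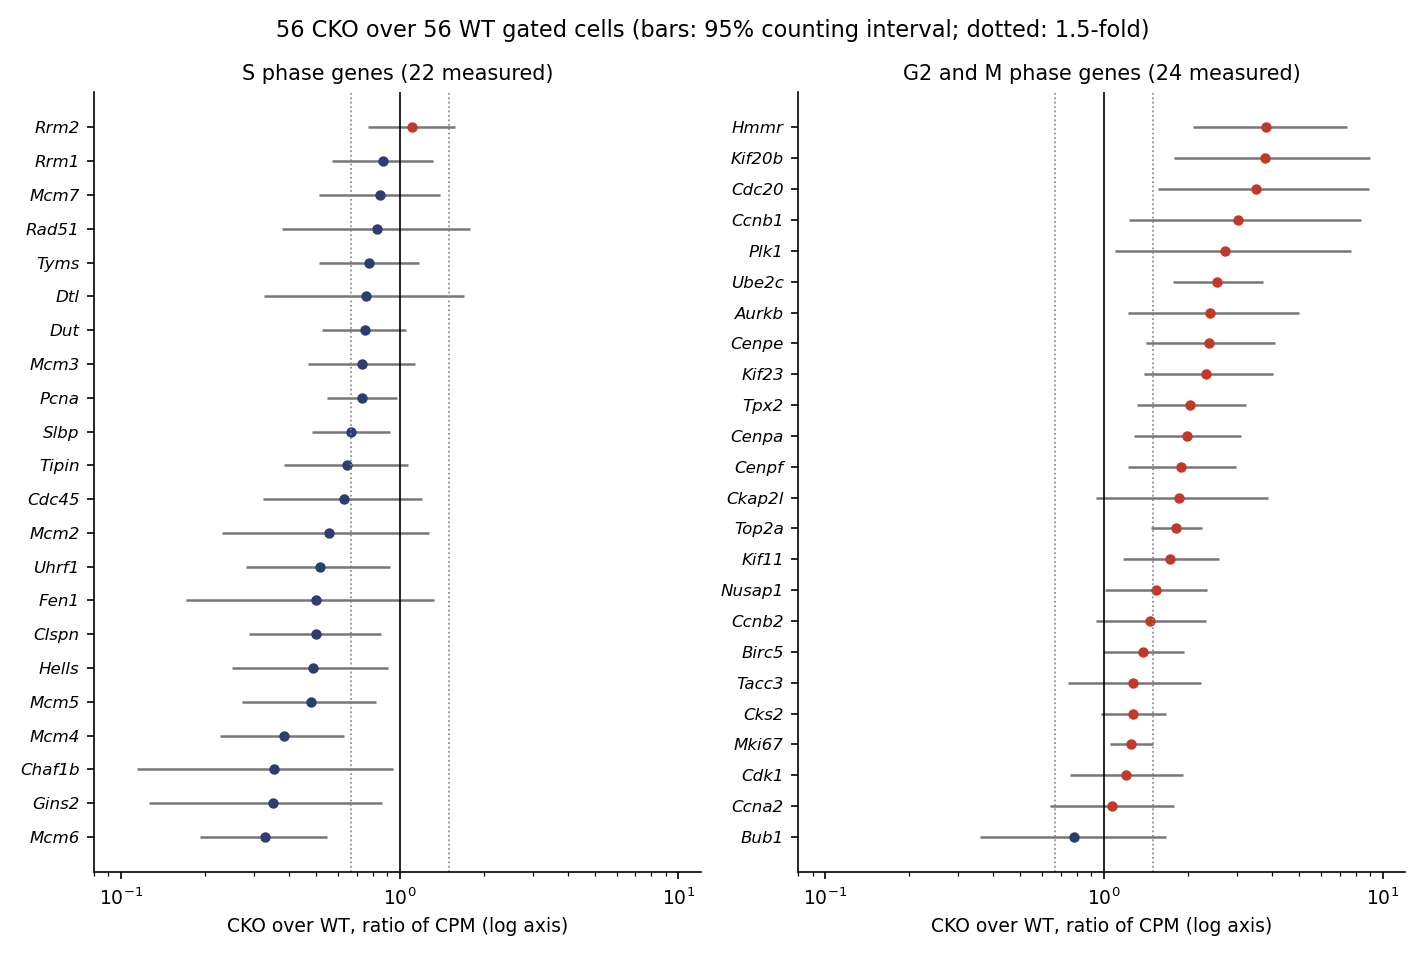
CKO over WT ratio of CPM (log axis) over the 56 CKO and 56 WT cells for the 22 measured S phase genes and the 24 measured G2 and M phase genes, with 95% counting intervals as bars and dotted lines at 1.5-fold. All S phase genes but Rrm2 lie below 1, and all G2 and M phase genes but Bub1 above it.

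The balance was read in each cycling cell. The S phase list had a median of 1630 CPM per cycling cell in CKO (0 to 5128) and 3285 CPM in WT (940 to 6158), and the G2 and M phase list 6307 CPM in CKO (2191 to 10293) and 2243 CPM in WT (354 to 8680). The ranges overlap over most of their width. The G2 and M phase level was above the S phase level in 9 of 12 CKO cells and 5 of 13 WT cells. In the other retained cells the summed CKO over WT ratio was 1.16 (1.14 to 1.17) for the S phase list and 1.35 (1.33 to 1.37) for the G2 and M phase list, and in B cells by gate 1.08 (1.06 to 1.10) and 1.27 (1.24 to 1.30). Whether the neutrophils differ from these cells was not tested.

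**Figure D5:**
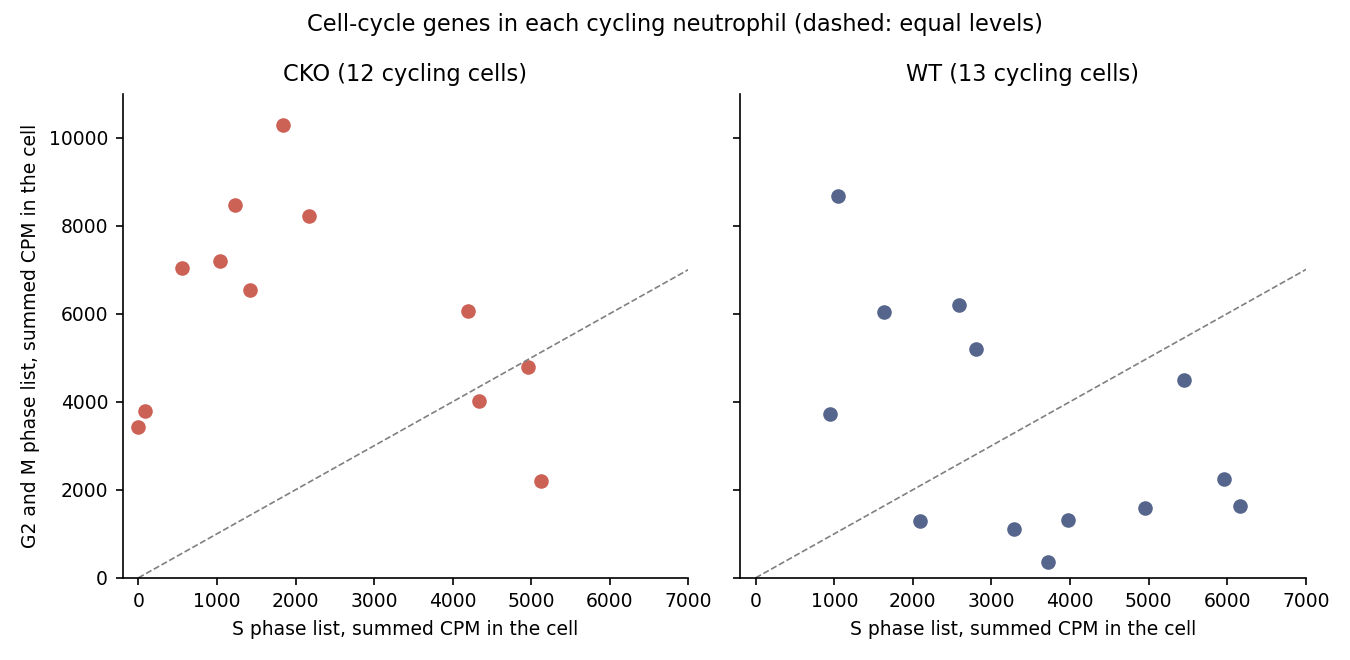
Summed CPM of the S phase list (horizontal) and of the G2 and M phase list (vertical) in each cycling neutrophil, 12 CKO cells on the left and 13 WT cells on the right, with a dashed line where both are equal. Above the line lie 9 CKO cells and 5 WT cells.

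Of the RPA and ATR checkpoint list, which shares Tipin with the S phase list, 6 of 16 genes were measured. Claspin was also meant for the checkpoint list, but was entered under a name that the gene annotation lacks and was not counted there. Of 6 measured genes 4 were at least 1.5-fold lower and 0 higher, namely Rpa2, the kinase Chek1 with 9 UMIs in CKO and 14 in WT, Topbp1, which activates ATR, with a ratio of 0.419 (0.264 to 0.649), and Tipin with 27 and 42 UMIs. Only the interval of Topbp1 excluded 1. The other 2, Rad17 and Rpa3, had ratios of 1.005 and 1.102. Of 9 measured p53 target genes 4 were higher, Cdkn1a, Ccng1, Gadd45b and Trp53inp1, and 1, Bax, lower, each with an interval that included 1. Cdkn1a, the cell-cycle inhibitor p21, had 15 UMIs in CKO and 6 in WT, all in cycling cells, a ratio of 2.51 (0.921 to 7.90).

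Other lists are set beside all 5312 genes measured, of which 9.98% were at least 1.5-fold higher and 9.56% at least 1.5-fold lower. Of 20 type I interferon genes 4 were higher, Bst2, Ifi27l2a, Rsad2 and Isg20, and 3 lower, Ifitm2, Oasl2 and Xaf1. Ifi27l2a had 135 UMIs in CKO and 88 in WT, while the abundant Ifitm6 had 1783 and 2325, a ratio of 0.770 (0.724 to 0.820), and Ifitm3 697 and 848. Of 10 granulocyte transcription factors 2, Irf1 and Runx1, were higher and 0 lower, and Cebpd had a ratio of 1.404 (1.17 to 1.68) and Cebpe one of 1.199 (1.05 to 1.36). Of 5 primary granule genes 0 were higher and 2, Elane and Prtn3, lower, and without the highest cell of each library their ratios were 6.03 and 1.36 in place of 0.664 and 0.651. Of 9 inflammatory genes 1, Ccl6, was higher and 1, Il1r2, lower.

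Of 13 survival genes 2, Bcl2l1 and Gadd45b, were higher and 1, Bax, lower, and Mcl1, the survival factor neutrophils depend on, had 160 UMIs in CKO and 120 in WT, a ratio of 1.34 (1.05 to 1.71). Of 18 glycolysis genes 0 were higher and 1, Pfkfb4, lower. Of 11 MHC class I genes 1, Tap1, was higher and 1, Psmb10, lower, while H2-D1, a class I heavy chain, had a ratio of 0.703 (0.614 to 0.805), against 0.907 in the other retained cells. Of 18 cytoskeleton and neutrophil cytosol genes 1, Stfa1, was higher and 1, Stfa3, lower, and these stefin genes are close copies found in 4 CKO cells and 1 WT cell for Stfa1 and in 3 and 2 for Stfa3. Without the highest cell of each library the Stfa3 ratio was 1.005 in place of 0.167.

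B and T cell markers were lower in the gated cells than in the other retained cells. The gate left out cells by Cd79a, Cd3d, Cd3e and Csf1r. Low values of B cell, T cell and monocyte markers thus follow in part from the gate and are a description. The monocyte, eosinophil and basophil lists were higher than in the other retained cells through 1 gene each. The 12 B cell markers summed to 508 CPM in CKO neutrophils and 470 CPM in WT neutrophils, against 31146 and 25263 CPM in the other retained cells, and the 12 T cell markers to 20.3 and 34.1 CPM against 769 and 2724 CPM. Of 17 monocyte or macrophage markers 9 were at 0 in CKO and 11 in WT, among them F13a1, C1qa, C1qb, C1qc, Cx3cr1, Ace, Vcan and Mrc1 in both, and Ly6c2, which neutrophil precursors also express, gave 833 of 866 and 808 of 842 UMIs. That list summed to 1097 CPM in CKO neutrophils and 1062 CPM in WT neutrophils, against 423 and 396 CPM in the other retained cells. Of 9 eosinophil markers 6 were at 0 in each, Prg2 and Epx among them, and Ear2 gave 115 of 124 UMIs in CKO and 78 of 82 in WT. The list summed to 157 and 103 CPM, against 42.3 and 31.5 CPM in the other cells. Of 8 basophil or mast cell markers 7 were at 0 in CKO and 6 in WT, Mcpt8 and Cpa3 among them, and the histidine decarboxylase gene Hdc gave 129 of 129 and 152 of 153 UMIs, with list sums of 163 and 193 CPM against 14.5 and 12.4 CPM in the other cells. Erythroid and platelet markers summed to 8 and 1 UMIs in CKO and to 1 and 2 UMIs in WT.

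Single cells carried most UMIs of the NK cell and dendritic cell lists, while the highest cell held at most 22.4% of the B cell, monocyte, eosinophil or basophil list. In 1 cycling cell of each library the 10 NK cell markers had 97 UMIs in CKO and 147 in WT, which is 75.2% and 77.0% of those UMIs, while the same cells gave 26.0% and 21.5% of their UMIs to calprotectin. Such a cell accounts for 23 of 24 Gzma UMIs in CKO and 64 of 64 in WT. In 1 non-cycling cell of each library the 12 dendritic cell markers had 171 UMIs in CKO and 131 in WT, 77.7% and 70.8% of the total, with 33 of 33 Siglech UMIs in the CKO cell. Scrublet, a doublet caller, marked none of these 4 cells by the score used here.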

How the data were processed

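Spleen immune cells of 2 libraries, 1 CKO and 1 WT, were measured with 10x Genomics 3' single-cell chemistry v3.1, per the labels' protocols. The authors deposited counts, as UMIs per gene and barcode. The submitters' processing notes name Cell Ranger 5.0.0, Seurat 4.0.3 and the build mm10, while the file headers give cellranger 6.0.2; whether the deposited barcodes had been filtered further is not given in the sources used here, and their lowest UMI totals were 501 and 500.

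Counts were analysed with Python 3.11.15, numpy 2.4.6, scipy 1.17.1 and pandas 2.3.3. UMIs were summed over the gated cells of a library and divided by the summed total (CPM). Genes with at least 20 UMIs over both libraries were measured (20 over both classes in each library for cycling against non-cycling cells, 50 in each library against other cells), and list medians used a pseudocount of 1 CPM. Shares have exact Clopper-Pearson intervals, CPM exact Poisson intervals and ratios exact conditional binomial intervals. B cells by gate had at least 3 Cd79a UMIs, 0 of Cd3d, Cd3e and Csf1r, and under 20 of S100a8 and S100a9. T cells by gate had at least 2 of Cd3d and Cd3e and 0 of Cd79a. Named genes were the 12 on each side whose interval lay farthest from a ratio of 1, in at least 5 cells, without gate, receptor segment, ribosomal, mitochondrial, sex-linked and unnamed genes, and the 15 genes with the largest lower-of-2-libraries ratio against other cells, together with list members. Promoter windows came from RefSeq GRCm38.p6 and gene positions from GENCODE. Scrublet (scanpy 1.11.5) called 9 CKO and 532 WT doublets by its own threshold, which was not used; by an expected rate of 0.8% per 1000 cells it marked 1293 and 1394 retained cells, 2 and 5 of them gated, which were kept. The scripts were tested on simulated counts.

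The gate, members and lists were chosen with earlier results of these data known. The cycling class, the S phase and the G2 and M phase lists were chosen after seeing the values. Alternatives were other gate limits, count minimums, scaling, cell weights, removal of high Scrublet scores and cycling or non-cycling cells alone.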

Additional observations from a re-analysis of the deposited data

How the results depend on the processing

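No paired analysis was possible because each genotype had 1 library. With a minimum of 10 UMIs, 936 genes were at least 1.5-fold higher and 910 lower in CKO, and with 50 UMIs 146 and 145; in cycling cells alone 325 were lower. The cycling over non-cycling counts were 1084 higher at 10 UMIs, and 300 higher and 205 lower at 50 UMIs. These counts move with the number of genes measured. The S phase median was -0.51 at 50 UMIs, -0.52 without high Scrublet scores, -0.56 in cycling cells alone, -0.45 over 2 genes in non-cycling cells alone and -0.56 with a pseudocount of 5 CPM. The G2 and M phase median reversed to -0.68 in non-cycling cells alone, where 1 gene was measured. Without high Scrublet scores the granule-rich WT share was 100%. Among named genes, the CKO over WT ratio crossed 1 for Hist1h2ap (0.961, non-cycling cells alone) and Bst2 (0.594 in cycling cells alone, 0.793 without the highest cells). It also did so for Ldhc and Antxr2 (1.07 each, cycling cells alone). In those classes CKO and WT held 3 and 3 UMIs of Hist1h2ap and 5 and 9 of Bst2. For Ldhc they held 1 and 1 UMIs, and for Antxr2 3 and 3. Such counts are too low to show a direction, and the cause was not tested. The other 20 of 24 named genes kept their direction in each alternative run. Comparisons of granule-rich with granule-low cells, and ratios within granule-low cells, were not run, since 0 CKO and 1 WT gated cells were granule-low. The 56 cells per library limit rare transcripts, and the number of mice is not known.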
